A study of Oncorhynchus tshawytscha with 17 samples.

Results

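Solute carrier genes encode membrane proteins that move ions, metals, sugars, amino acids, vitamins and metabolites across cell and organelle membranes. The genes described here were all entries of the Chinook salmon (Oncorhynchus tshawytscha) hindgut count table whose identifier was an slc family symbol, leaving out slc10a2, the bile acid carrier, and slc3a1, an amino acid transporter subunit. The rule uses the symbol and no measured value, but it was set with earlier results of these data known. It gave 83 genes of 31 families among 42554 named genes. Entries known only by a LOC identifier were not used, although 127 of them carry an slc symbol in the RefSeq gene table of assembly Otsh_v2.0. The 83 are therefore not the whole family of this fish. Of the 83, 73 (88%) had enough counts to be tested, against 87% of the 4401 entries with a symbol and 71% of all named genes, and 10 did not.

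The hindgut is the last segment of the intestine. In fish its enterocytes take up intact protein and degrade it in large lysosome-rich vacuoles, so that transport out of lysosomes is part of their work alongside uptake at the brush border. Carriers at the brush border bring in sugars, amino acids, vitamins and metals, usually driven by sodium or proton gradients. Others sit on mitochondria, on lysosomes, and on the Golgi and secretory vesicles, where they supply nucleotide sugars for glycosylation or load zinc.

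RNA was sequenced from the hindgut epithelium of 17 diploid fish. There were 6 controls described as healthy, 5 fish given antibiotics for 10 days and 6 fish given probiotics for 10 days, all killed with an overdose of clove oil. The antibiotics, the probiotic strains, the doses, and the age and strain of the fish are not stated in the labels. Fish are named by group and by the number and letter of their titles, as ctl12A, abx67B or pro115C. What the title numbers stand for is not stated, so p-values measure the spread between these samples, and fish that share a number may share a tank or family.

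Total counts, in M (1e6), ranged from 38.12 to 56.7 in controls, 39.87 to 59.42 in antibiotic fish and 28.58 to 61.06 in probiotic fish. Of the marker lists, enterocyte markers summed to 6390 to 15600 TPM (transcript abundance per length, scaled to the same total in every library) in controls, 4170 to 19800 in antibiotic fish and 5630 to 15900 in probiotic fish, with 8 of 14 markers found and most of the sum from fabp6. Smooth muscle and mesenchyme markers (4 of 13 found) summed to 910 to 2110, 950 to 1470 and 825 to 1550 TPM. Exocrine pancreas markers (4 of 10 found) summed to 18.7 to 147, 13.7 to 95.5 and 18.9 to 842 TPM. No marker found was at 0 in all fish, and the part of pancreas RNA in the results below was not tested. With a smooth muscle score as a covariate no solute carrier gene was called, and in probiotic fish against controls 5.48% of the tested members were at an unadjusted p under 0.05, against 8.22% without it. Over all tested genes that share was 5.78% with the score and 9.71% without it. In such bulk samples fewer cells of a type and less RNA per cell cannot be told apart.

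Levels of different genes are compared in TPM, in which the count is divided by the exon length given in the table. The median level of the 83 genes was 5.99 TPM, close to the 6.07 TPM of all 4401 entries with a symbol. Over all named genes, most of which carry only a LOC identifier, it was 1.43 TPM. Of the 83, 31 were above 10 TPM, 32 lay between 1 and 10 TPM and 20 were below 1 TPM, and 72 had a count in every fish. The 4 most abundant held 38.5% of the summed level of the 83 genes and the 10 most abundant held 60.7%. The sum over all 83 was 1373 ± 158 TPM (SD, n = 6) in controls, 1442 ± 154 (n = 5) in antibiotic fish and 1481 ± 179 (n = 6) in probiotic fish. The ranges were 1217 to 1590, 1326 to 1703 and 1233 to 1656 TPM, so the groups overlapped over most of their span.

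**Figure D1:**
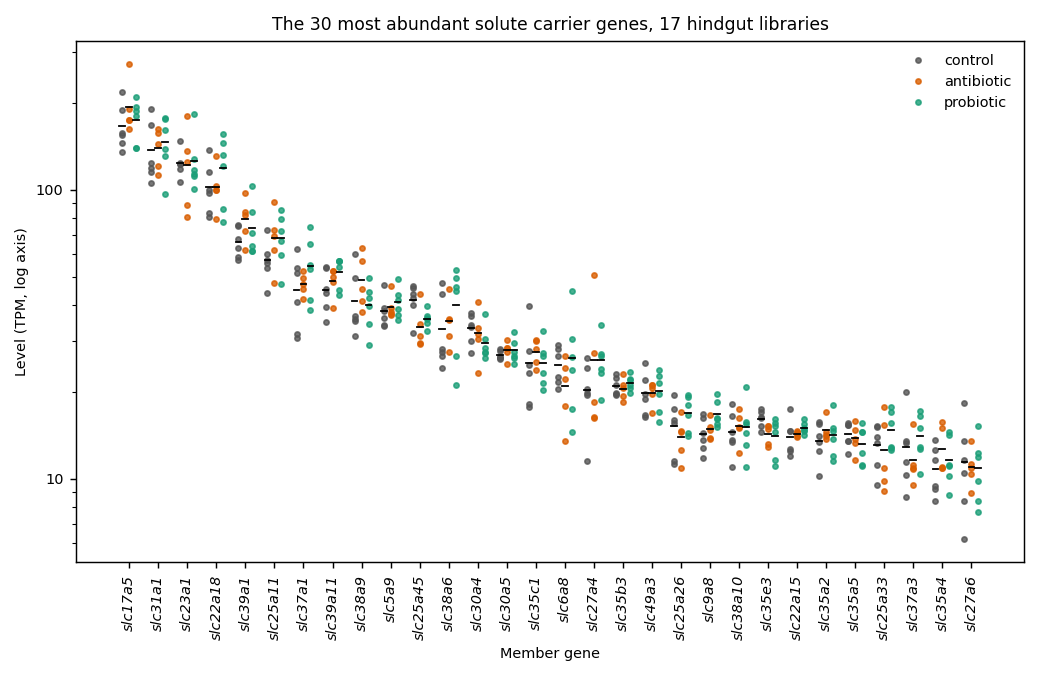
Level of the 30 most abundant solute carrier genes in each fish, in TPM on a log axis, ordered by mean level and with 1 point per fish coloured by group and a short line at each group mean. The levels run from about 178 TPM for slc17a5 down to that of slc27a6, and in each gene the points of the 3 groups are mixed.

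The most abundant gene was slc17a5, which encodes sialin, the carrier that exports sialic acid from lysosomes. It lies at 62041752 to 62051879 on the minus strand of NC_037102.1, in the coordinates of the deposited table, whose genome build the labels leave unnamed. Its level was 135 to 219 TPM in controls, with a median of 156. In antibiotic fish it was 174 TPM in abx67A, 272 in abx67B, 190 in abx67C, 162 in abx91A and 174 in abx91B. In probiotic fish it was 140 to 210 TPM, with a median of 184. Only abx67B lay above every control, and the groups overlapped. Among all named genes slc17a5 ranked 759. A second lysosomal protein, slc38a9, which senses lysosomal arginine for the mTORC1 growth pathway in mammals, had a mean of 43.05 TPM and ranked 9 among the 83. The lysosomal carrier slc37a3 had a mean of 12.93 TPM.

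Trace metal carriers held the largest share of the summed level, at 23.3% from 8 genes. The copper importer slc31a1 (NC_037129.1, 5257345 to 5270462, minus strand) was the most abundant of them. Its level was 106 to 191 TPM in controls, with a median of 121. The antibiotic fish were at 113 TPM in abx67A, 162 in abx67B, 157 in abx67C, 144 in abx91A and 121 in abx91B. In probiotic fish it was 97.1 to 177 TPM, with a median of 150, and the 3 groups overlapped. Of its exon bases, 12.68% overlap those of cdc26, and no source used here says whether counting used the strand, so some of these counts may belong to the neighbour. The other abundant metal carriers move zinc. The importers slc39a1 and slc39a11 had means of 72.94 and 48.62 TPM, and slc30a4 and slc30a5, which load zinc into vesicles and the secretory pathway, had means of 31.54 and 27.51 TPM. The importers slc39a10 and slc39a6 were lower, at 7.006 and 5.084 TPM, and the eighth metal gene, slc39a12, was at 0.0146 TPM and was not tested.

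Among vitamin, nucleoside and heme carriers, which held 11.27% of the summed level from 5 genes, slc23a1 stood highest. It encodes the sodium-coupled carrier for ascorbate (vitamin C), a vitamin that salmonids must obtain from their diet. It lies at 65513491 to 65522810 on the minus strand of NC_037105.1. Its level was 107 to 148 TPM in controls, with a median of 123. Antibiotic fish had 89 TPM in abx67A, 181 in abx67B, 136 in abx67C, 125 in abx91A and 80.4 in abx91B. In probiotic fish it was 101 to 183 TPM, with the middle fish at 114 and 117. The antibiotic fish spread from below to above every control. The exons of slc23a1 share 8.42% of their bases with LOC112258317. The proton-coupled folate carrier slc46a1 had a mean of 10.09 TPM.

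Carriers of organic ions and monocarboxylates held 22.3% of the summed level from 9 genes, most of it from slc17a5 and slc22a18. The latter encodes an organic cation transporter-like protein and lies at 74176589 to 74188084 on the minus strand of NC_037100.1. Its level was 80.8 to 137 TPM in controls, with a median of 99.2. Antibiotic fish had 100 TPM in abx67A, 131 in abx67B, 100 in abx67C, 79.4 in abx91A and 103 in abx91B. In probiotic fish it was 77.2 to 156 TPM, with a median of 127, and the groups overlapped. These 4 leading genes, slc17a5, slc31a1, slc23a1 and slc22a18, follow each other in mean level, but the ranges over fish of each neighbouring pair overlapped, so their order holds for the means only.

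Mitochondrial carriers, the slc25 family, were the largest class with 14 genes and held 12.6% of the summed level. The highest was slc25a11, the exchanger of oxoglutarate and malate, with a mean of 64.47 TPM. Its group means were 57.27 ± 9.28 TPM in controls (SD, n = 6), 68.47 ± 15.8 in antibiotic fish (n = 5) and 68.32 ± 13.8 in probiotic fish (n = 6), with overlapping ranges. The next was slc25a45, a carrier whose substrate is less settled, with a mean of 37.26 TPM. It was followed by the S-adenosylmethionine carrier slc25a26 at 15.47 TPM and the pyrimidine nucleotide carrier slc25a33 at 13.54 TPM. The ADP/ATP exchanger slc25a4 was at 0.2283 TPM under this symbol and was not tested.

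Sugar carriers held 7.35% of the summed level from 6 genes. The most abundant was slc37a1, which exchanges glucose-6-phosphate for phosphate at the endoplasmic reticulum, with a mean of 49.19 TPM. The sodium-coupled mannose and fructose carrier slc5a9 was the highest that works at the cell surface, with a mean of 39.45 TPM. Its levels were 33.8 to 46.8 TPM in controls, 36.8 to 46.4 TPM in antibiotic fish and 35.5 to 49.2 TPM in probiotic fish, so the groups covered nearly the same range. The intracellular glucose carrier slc2a8 was at 0.5017 TPM, and slc45a2, known from melanosomes, was at 0.2551 TPM.

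Amino acid and peptide carriers held 9.65% of the summed level from 13 genes, and after slc38a9 the highest were slc38a6 at 36.14 TPM and the creatine carrier slc6a8 at 24.15 TPM. The heavy chain slc3a2, which brings several amino acid exchangers to the cell surface, had a mean of 3.252 TPM. A second copy of it, named slc3a2b in the reference table, was at 19.6 TPM. The intestinal peptide carrier slc15a1 was at 0.1038 TPM and was not tested, and its other named copy was at 0.61 TPM. In all, 7 of the 83 genes have another copy with a symbol, and in 4 of these, slc3a2, slc25a25, slc6a4 and slc15a1, that copy had the higher mean level. Reads that 2 copies share could be split between them, so the levels of these genes are uncertain. Fold changes given below are those of the entry among the 83, not of the other copy.

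Nucleotide sugar and secretory pathway carriers, the slc35 family, held 7.97% of the summed level from 10 genes. The GDP-fucose carrier slc35c1 led with a mean of 25.93 TPM. It was followed by slc35b3, which brings the sulfate donor PAPS into the Golgi, at 20.99 TPM, by slc35e3, whose substrate is not established, at 14.85 TPM, and by the UDP-galactose carrier slc35a2 at 14.11 TPM. The sum over this class varied little between fish. It was 101 to 128 TPM in controls, 113 to 120 in antibiotic fish and 104 to 121 in probiotic fish.

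Carriers of inorganic ions numbered 13 but held 2.64% of the summed level. The sodium and proton exchanger slc9a8 was the highest, with a mean of 15.36 TPM, and the sodium, potassium and chloride cotransporter slc12a2 had a mean of 7.299 TPM. The chloride and bicarbonate exchanger slc26a3 had 75 counts in pro115B and at most 11 in any other fish, with 0 in 13 of the 17 libraries. The class also holds slc4a1ap, which encodes kanadaptin, an adaptor protein and not a carrier, because the symbol decided membership. Fatty acid and choline genes held 2.5% of the summed level from 3 genes, led by slc27a4 at 23.82 TPM. The vesicular monoamine carrier slc18a1, of enteroendocrine cells, and the serotonin carrier slc6a4 were at 3.405 and 1.41 TPM.

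The 10 genes not tested were slc25a4, slc26a3, slc6a14, slc15a1, slc35g1, slc5a5, slc13a3, slc26a9, slc39a12 and slc26a4. None had a mean level above 0.2283 TPM, and each had a count of 0 in at least 1 library. Low counts in this table were even numbers more often than odd. Of counts from 1 to 20, 61.7% were even over all genes and 69.3% over these genes (140 of 202). The cause was not tested, and if mates of a read pair were counted separately, low counts stand for fewer independent fragments than they show.

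Fish of the same group differed in a subset of carriers. Spread is given as the SD of log2 CPM within groups, where CPM is a gene's count scaled by library size. Its median was 0.35 over the 73 tested genes, against 0.327 over tested entries with a symbol and 0.424 over all tested genes. The steadiest were slc22a15 at 0.0888, slc35b3 at 0.109, slc30a5 at 0.136, slc35a5 at 0.153 and slc9a8 at 0.174. The highest fish had 1.266 times the level of the lowest for slc35b3.

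**Figure D2:**
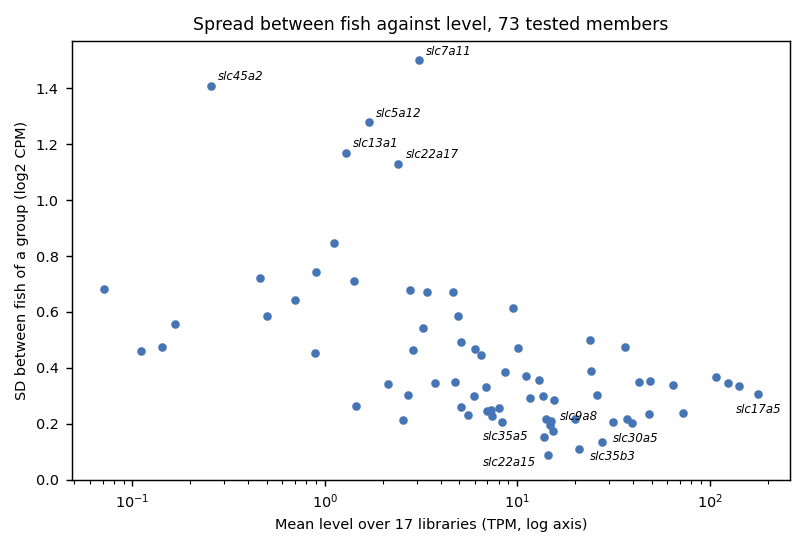
Spread between fish of a group, as the SD of log2 CPM, against mean level in TPM on a log axis, with 1 point for each of the 73 tested solute carrier genes. The 5 genes of largest spread, led by slc7a11 at 1.5, have mean levels below 4 TPM, and slc17a5, the most abundant gene, has a spread of 0.308.

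The gene of largest spread was slc7a11, the antiporter that imports cystine in exchange for glutamate, with an SD of 1.5. Its level was 1.01 to 10.45 CPM in controls, with a median of 2.61. The antibiotic fish were at 1.44 CPM in abx67A, 19.3 in abx67B, 5.94 in abx67C, 0.705 in abx91A and 1.32 in abx91B. In probiotic fish it was 1.65 to 19.4 CPM, with a median of 3.09. The groups overlapped over most of their range, and the highest fish, pro139A and abx67B, belonged to different treatments. In TPM the highest fish had 27.84 times the level of the lowest. The others of large spread were slc45a2, with an SD of 1.41, the monocarboxylate carrier slc5a12 at 1.28, the sodium and sulfate carrier slc13a1 at 1.17 and slc22a17, a lipocalin receptor in mammals, at 1.13. Counts of slc45a2 were only 0 to 42 per fish, with a median of 9, so its SD is that of a gene near the floor.

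A principal component analysis of the tested genes placed 35.2% of the variance on the first component and 15.1% on the second. Positions on the first component ran from -2.71 to 3.59 in controls, from -3.82 to 3.87 in antibiotic fish and from -4.49 to 3.27 in probiotic fish, so it did not separate the groups. The genes of largest weight were slc7a11 at -0.492, slc22a17 at 0.402, slc5a12 at -0.309 and slc13a1 at -0.239. The weights of slc7a11 and slc22a17 had opposite signs. In pro139A slc22a17 was at 0.985 CPM and slc7a11 at 19.4 CPM, and in abx91A slc22a17 was at 9.48 CPM and slc7a11 at 0.705 CPM. The enterocyte marker sum differed between these fish. It was 13400 TPM in pro139A and 19800 TPM in abx67B, at the low end of the component. It was 4170 TPM in abx91A and 6390 TPM in ctl35B, at the high end. Its part in the component was not tested.

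**Figure D3:**
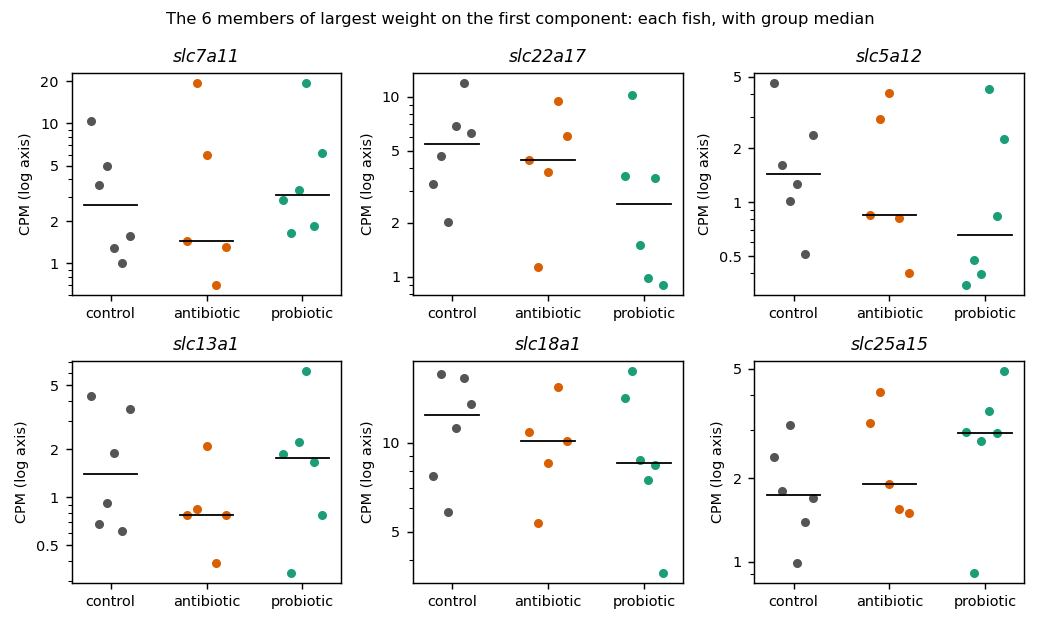
Levels of the 6 genes of largest weight on the first principal component in each fish, in CPM on a log axis, by group, with a line at the group median. In slc7a11 and slc22a17 fish of the same group differ by more than 5-fold, and the 3 groups overlap in each panel.

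The study asked whether treatment of the gut microbiota changed host gene expression. No solute carrier gene was called in any of the comparisons. Genes were called at an adjusted p under 0.05 in edgeR's quasi-likelihood test with Benjamini-Hochberg adjustment over all 30221 tested genes, and the background was 0% called in each comparison. DESeq2 and limma-voom called 0 of the 73 as well. No gene had groups that did not overlap in CPM, in any comparison. Over all tested genes 0.483% did for antibiotic fish and controls, 0.291% for probiotic fish and controls, and 0.374% between the treatments. The comparisons with controls share the same 6 control fish, so their values are not independent of each other.

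**Figure D4:**
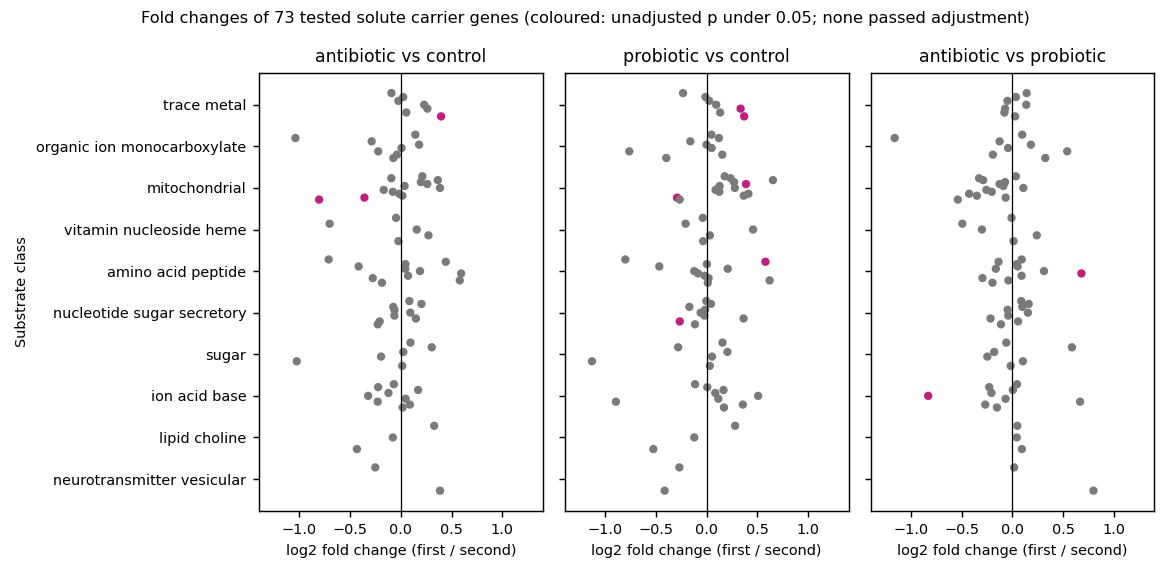
Log2 fold change of each of the 73 tested solute carrier genes in the 3 comparisons, grouped by substrate class, with 1 point per gene, coloured where its unadjusted p is under 0.05. Most points lie within 0.5 of 0, and the largest values, near -1, belong to genes of low level. Some classes lie mostly on 1 side of 0, as do the mitochondrial carriers in probiotic fish against controls (11 of 13 above 0).

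In antibiotic fish against controls 38 of the 73 genes (52.1%) had a log2 fold change above 0, against 53% of all tested genes, and the median was 0.01 against 0.02 over all genes. Without adjustment 3 genes (4.11%) were at p under 0.05, against 6.21% of all genes. With a higher mean this was 1 gene, slc39a6 (background 3.68%), and with a lower mean 2, slc25a45 and slc25a47 (background 2.53%), so these shares were near or below the background. Of the 73 log2 fold changes, 66 lay within 0.5 of 0. Among the 30 most abundant genes they ran from -0.36 for slc25a45 to 0.33 for slc27a4. For slc27a4, abx67B was at 152.6 CPM, against 45.1 to 76.7 CPM in the other antibiotic fish. The median of slc27a4 was 53.1 CPM in antibiotic fish, below the 60.8 CPM of controls.

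The mitochondrial carrier slc25a45 was at 25.8 to 45.7 CPM in controls, with a median of 39.1. In antibiotic fish it was 27.6 CPM in abx67A, 31.8 in abx67B, 36.9 in abx67C, 26 in abx91A and 25.6 in abx91B. Most antibiotic fish lay below most controls, but the control ctl35B, at 25.8 CPM, was nearly as low as the lowest of them. The means were 29.6 ± 4.77 (SD, n = 5) and 37.9 ± 7.05 (n = 6) CPM, a log2 fold change of -0.36 ± 0.13 (SE), with an edgeR p of 0.0144 and an adjusted p of 0.803.

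The zinc importer slc39a6 was at 6.86 to 10.43 CPM in controls, with a median of 9.59. The antibiotic fish were at 15.36 CPM in abx67A, 10.84 in abx67B, 10.38 in abx67C, 10.43 in abx91A and 13.55 in abx91B. Of them 4 lay above every control, abx91A by less than the digits shown, and abx67C lay just below the highest control. The log2 fold change was 0.40 ± 0.16 (SE), with an edgeR adjusted p of 0.803.

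The mitochondrial carrier slc25a47, expressed mainly in liver in mammals, was at 6.5 to 28.7 CPM in controls, with a median of 14.8. In antibiotic fish it was 8.43 CPM in abx67A, 11.2 in abx67B, 8.17 in abx67C, 9.52 in abx91A and 7.24 in abx91B. The controls were widely spread and enclosed all antibiotic fish. The log2 fold change was -0.81 ± 0.35 (SE), with an edgeR adjusted p of 0.803. Liver markers (8 of 13 found) summed to 5.24 to 11.8 TPM in controls. In antibiotic fish they summed to 6.48 TPM in abx67A, 96.2 in abx67B, 117 in abx67C, 3.93 in abx91A and 8.79 in abx91B. The part of liver RNA in the values of slc25a47 was not tested.

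The others among the 10 smallest p in this comparison had adjusted p above 0.8. They included slc25a25, a mitochondrial carrier of ATP-Mg and phosphate (log2 fold change 0.39), slc3a2 (0.59), slc39a10 (0.26), the nucleoside carrier slc28a3 (-0.70), the peptide carrier family gene slc15a5 (-0.71) and slc35e3 (-0.21). The value for slc28a3 rested on ctl35C, at 19.6 CPM against 3.13 to 5.91 CPM in the other controls, and was -0.08 without that fish. That for slc3a2 was 0.24 without abx91B, the highest fish at 10.27 CPM, and that for slc39a10 was 0.13 without the same fish. That for slc15a5 was -1.1 without abx67B, and its counts were only 4 to 27 per fish.

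In probiotic fish against controls 42 of the 73 genes (57.5%) had a log2 fold change above 0, against 50.7% of all tested genes, and the median was 0.03 against 0.0047 over all genes. Without adjustment 6 genes (8.22%) were at p under 0.05, against 9.71% of all genes. In the direction of higher levels these were 4 genes (5.48% against 5.29%) and in that of lower levels 2 (2.74% against 4.42%), shares near or below the background. Of the 73 log2 fold changes, 64 lay within 0.5 of 0. Among the 30 most abundant genes they ran from -0.29 for slc25a45 to 0.28 for slc27a4.

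The zinc importers slc39a10 and slc39a6 were among them. The former was at 18.3 to 26.1 CPM in controls and 24.6 to 32 CPM in probiotic fish, with medians of 21.8 and 27.7. Of the probiotic fish, 4 lay above every control, and its log2 fold change was 0.33 ± 0.14 (SE), with an edgeR adjusted p of 0.484. The level of slc39a6 was 6.86 to 10.43 CPM in controls and 9.82 to 16.3 CPM in probiotic fish, with medians of 9.59 and 11.2. Of the probiotic fish, 3 lay above every control, and its log2 fold change was 0.37 ± 0.15 (SE), with an edgeR adjusted p of 0.484.

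The level of slc25a45 was 29.6 to 34.1 CPM in probiotic fish, with a median of 30.6, all within the control range given above. Its log2 fold change was -0.29 ± 0.12 (SE), with an edgeR adjusted p of 0.493. The orphan carrier slc35e3 was at 16.3 to 22.6 CPM in controls and 13.1 to 19.4 CPM in probiotic fish, with medians of 20.4 and 17.9. Its log2 fold change was -0.27 ± 0.12 (SE), with an edgeR adjusted p of 0.501. The glutamate carrier slc1a2 was at 7.51 to 14.7 CPM in controls and 7.59 to 22.9 CPM in probiotic fish, with medians of 9.02 and 14. The probiotic fish split, with pro115C, pro139A and pro139B above 18 CPM and the other 3 below 10 CPM. Its log2 fold change was 0.58 ± 0.26 (SE), with an edgeR adjusted p of 0.505.

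**Figure D5:**
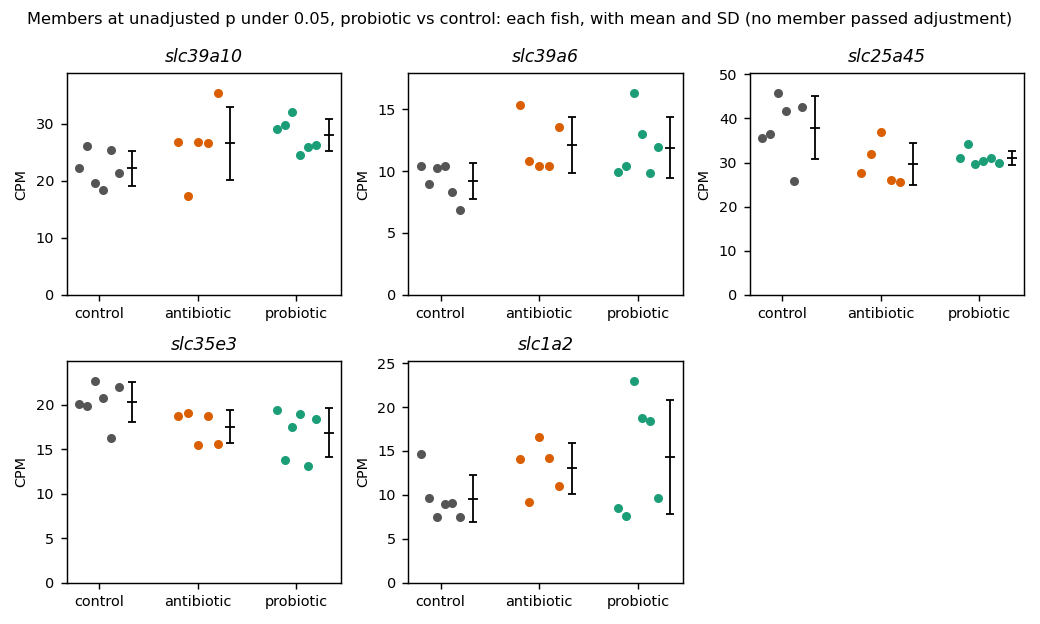
Levels in each fish, in CPM from 0, of 5 genes at an unadjusted edgeR p under 0.05 in probiotic fish against controls, with the group mean and SD. In slc39a10, 4 of 6 probiotic fish lie above every control, and in each panel the groups overlap.

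By class, 11 of the 13 tested mitochondrial carriers had a positive log2 fold change in probiotic fish against controls, with a median of 0.24. Over all tested genes 50.7% did. In antibiotic fish against controls 7 did, with a median of 0.01, against 53% of all tested genes. In antibiotic against probiotic fish 2 did, with a median of -0.2, against 51.5% of all tested genes. The same probiotic fish enter the first and last of these counts, which are therefore not independent. The summed level of the class was 174 ± 20.9 TPM in controls (range 150 to 207), 174 ± 19.9 in antibiotic fish (149 to 204) and 192 ± 16.6 in probiotic fish (171 to 212), and the ranges overlapped. Of these 13 genes, 2 were at an unadjusted p under 0.05 in probiotic fish against controls, against 9.71% of all tested genes. They include slc25a45, which had a lower mean in probiotic fish. Among the genes of inorganic ions 7 of 9 had a positive log2 fold change in probiotic fish against controls, with a median of 0.12. The class sum, which includes slc4a1ap, was 31.4 to 39.2 TPM in controls, 35.1 to 39.3 TPM in antibiotic fish and 38.4 to 44.6 TPM in probiotic fish. Among the carriers of trace metals 5 of 7 did so, with a median of 0.09. Of the slc35 family 2 of 9 did, with a median of -0.02.

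In antibiotic against probiotic fish 33 of the 73 genes (45.2%) had a log2 fold change above 0, against 51.5% of all tested genes, and the median was -0.04 against 0.0089 over all genes. Without adjustment 2 genes (2.74%) were at p under 0.05, against 6.05% of all genes. With a higher mean in antibiotic fish this was 1 gene, slc3a2 (background 3.66%), and with a lower mean 1, slc26a2 (background 2.39%). Of the 73 log2 fold changes, 65 lay within 0.5 of 0.

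The sulfate carrier slc26a2 was at 0.356 CPM in abx67A, 1.37 in abx67B, 0.736 in abx67C, 0.25 in abx91A and 0.853 in abx91B. In probiotic fish it was 0.54 to 1.93 CPM, with a median of 1.19. The groups overlapped, and its log2 fold change was -0.83 ± 0.39 (SE), with an edgeR adjusted p of 0.823. The heavy chain slc3a2 was at 3.51 CPM in abx67A, 4.08 in abx67B, 3.14 in abx67C, 7 in abx91A and 10.27 in abx91B, and at 2.34 to 6.01 CPM in probiotic fish. The fish of title number 91 stood above the others, and its log2 fold change was 0.68 ± 0.32 (SE), with an edgeR adjusted p of 0.823. It was 0.32 without abx91B. The serotonin carrier slc6a4 was highest in abx91A, at 7.59 CPM. Of the antibiotic fish 4 lay above every probiotic fish, and abx67B, at 1.25 CPM, lay below them all. The log2 fold change of slc6a4 was 0.80, with an edgeR adjusted p of 0.834. It was 0.36 without abx91A and 1.43 with the index number described below as a covariate.

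The other genes among the 10 smallest p between the treatments had adjusted p above 0.8. The sodium and sulfate carrier slc13a1 was at 0.386 to 2.09 CPM in antibiotic fish and 0.337 to 6.12 CPM in probiotic fish, and its log2 fold change was -1.16 ± 0.67 (SE). It was -0.5 without pro139A. The mitochondrial carrier of branched-chain amino acids slc25a44 had a log2 fold change of -0.35, and of -0.65 with the index number described below as a covariate. The lysosomal sensor slc38a9 had one of 0.31, from means of 104 ± 22.1 and 83.4 ± 17.2 CPM, which turned to -0.01 with that covariate.

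The names of the index primers in the titles end in a number, and what it says of library preparation is not stated. The names for abx67C end in different numbers, and 9 was used. All antibiotic fish had 9 or 12, while controls and probiotic fish had 9, 10, 11 or 12. Number and treatment are thus not fully separable. With that number as a covariate 15 of the 73 genes (20.5%) were at an unadjusted p under 0.05 between the treatments, against 16% of all tested genes. In probiotic fish against controls it was 12 (16.4%) against 14.7%. None of the 73 genes was called with the covariate.

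Other transport genes with a symbol in the table, namely ABC transporters, aquaporins, organic anion transporters of the slco family and ATP-driven pumps, numbered 16, of which 15 were tested. None was called in any comparison by edgeR. At an unadjusted p under 0.05 were 1 in antibiotic fish against controls, 2 in probiotic fish against controls and 1 in antibiotic against probiotic fish. Over all tested genes the shares in these comparisons were 6.21%, 9.71% and 6.05%. The most abundant were abcg8, the partner of abcg5 in sterol export, at 180 TPM, the proton pump subunit atp6v0b at 108 TPM, abcd4, which serves cobalamin export from lysosomes, at 97.8 TPM, abcg5 at 53.1 TPM and slco4a1 at 36.9 TPM. The smallest p against controls in probiotic fish was that of abcd4, at 126 ± 28.7 CPM and 171 ± 12.31 CPM in controls, a log2 fold change of -0.44 ± 0.14 (SE), with an edgeR adjusted p of 0.446. In antibiotic fish the calcium pump of muscle, atp2a1, had the smallest p, at 3.48 ± 2.62 CPM and 1.19 ± 1 CPM in controls, with an edgeR adjusted p of 0.803. Against probiotic fish, at 0.629 ± 0.592 CPM, its adjusted p was 0.703.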

How the data were processed

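The values are read counts per gene in a table that the authors deposited. The submitters' processing notes name Trimmomatic 0.38, HISAT2 and featureCounts, which trim, align and count reads. The sources used here do not give the other versions, the genome build, the strand setting or the treatment of reads with several matches. The deposited table also holds each gene's exon length, another value used to compute TPM over named genes. The 1 entry with no gene name (0.155 to 0.523% of counts) was left out.

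Genes were filtered with filterByExpr, normalised by TMM and tested with edgeR 4.0.16 (robust quasi-likelihood F-test, 2-sided, group as the only factor, all 17 libraries, R 4.3.3). P-values were adjusted over all 30221 tested genes by Benjamini-Hochberg, and a gene was called under 0.05. CPM used TMM-scaled library sizes, and log2 CPM a prior count of 2. The SE of a log2 fold change is its size divided by the square root of F. Alternatives used DESeq2 1.42.0, limma-voom (limma 3.58.1), other normalisations and filters, covariates, and each fish left out. The script was tested on simulated data, with changes put into 100 genes per size and comparison, genes of low level left out. Of the 2-fold changes it called 52% for antibiotic fish against controls, 50% for probiotic fish against controls and 61% between the treatments. Changes of that size can thus go uncalled.

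The members, substrate classes, partner genes and markers were chosen with earlier results of these data known. Classes follow the slc family number, except that slc5a5, slc5a7, slc5a12 and slc6a4 were placed by their own substrate. Named are the 30 most abundant members, the 10 of smallest p in each comparison, the leading and smallest-p members of classes and partners, and the 5 of largest and of smallest spread. The values of 1 gene that meets this rule are not reported here. Other members are named to complete a class or a count, or as known hindgut carriers, and were chosen after their values were seen. Marker symbols were matched through the table and, for LOC identifiers, through the RefSeq gene table of assembly Otsh_v2.0, used for names only.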

Additional observations from a re-analysis of the deposited data

Results flagged for a closer look

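Among members named in the report, 165 gene and group combinations of 55 genes were screened for a fish set apart from the others of its group (Dixon's 95% criterion on log2 CPM), which chance meets in about 1 in 20. It was met in 8, which is about as many as that rate gives. Of these, 4 were the antibiotic fish abx67B. It stood at 378 CPM for slc17a5, against 217 to 241 in the other antibiotic fish, and at 74.7 CPM for slc5a9, against 53.9 to 58.8. It stood at 23.4 CPM for slc35a2, against 17.9 to 18.5, and at 34.7 CPM for slc37a3, against 20.4 to 23.4. Its enterocyte marker sum was 19800 TPM, the highest of the 17 fish, and the part of this in these values was not tested. The antibiotic fish abx91B was low for slc49a3, at 22.3 CPM against 27.3 to 28.8. The probiotic fish pro115B was at 34.1 CPM for slc25a45, against 29.6 to 31, and pro139B at 69.3 CPM for slc30a4, against 50.3 to 54.6. The control ctl35C was at 19.6 CPM for slc28a3, against 3.13 to 5.91 in the other controls.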

How the results depend on the processing

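No solute carrier gene was called in any comparison under any of 29 alternatives, 17 of which left out 1 fish each. Their counts of calls were 0 to 0. The median log2 fold change stayed between -0.04 and 0.04 for antibiotic fish against controls, -0.0052 and 0.07 for probiotic fish against controls, and -0.12 and 0.0012 between the treatments. With 1 fish left out it lay between -0.04 and 0.03, 0.01 and 0.06, and -0.11 and -0.03. The number at an unadjusted p under 0.05 moved from 3 to between 1 (without abx91B) and 6 (without abx67B) for antibiotic fish against controls. It moved from 6 to between 2 (without ctl35C) and 12 (number of the index primer as a covariate) for probiotic fish against controls, and from 2 to between 0 and 15 (the same covariate) between the treatments. The share over all tested genes moved as well. In antibiotic fish against controls 1.37% of the members met it without abx91B, against 4.72% of all tested genes. Without abx67B it was 8.11% against 5.66%. In probiotic fish against controls it was 2.74% against 6.42% without ctl35C, and 16.4% against 14.7% with the covariate. Between the treatments the covariate gave 20.5% against 16%. Log2 fold changes of single genes were followed only for the genes of smallest p in each comparison. Of these values 1 changed sign, that of slc38a9 between the treatments. It went from 0.31 to -0.01 with the number of the index primer as a covariate, and the cause was not tested. Whether other named genes, some with values near 0, kept their sign was not tested. Over all genes DESeq2 called 26, 35 and 18 where edgeR called 0, and none was a solute carrier gene described here. No paired analysis was possible because the groups share no replicate number. Title number, which is nested in the groups, was fitted as a random block in limma-voom, with a consensus correlation of 0.0404 and 0 calls.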
